A study of Sus scrofa with 30 samples.

Results

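The 10 genes described here, POU5F1, NANOG, SOX2, PRDM14, LIN28A, SALL4, NODAL, OTX2, KLF4 and DPPA4, belong to the pluripotency and epiblast genes. They came from a list of symbols chosen for their known roles, with earlier results of these data known, and all 10 were found by NCBI gene identifier among the 13103 genes of the table of all embryos. The table holds read counts of 30 single pig embryos collected 8, 10 or 12 days after insemination, 10 for each day, with both sexes in equal number (5 for each day and sex). All dams were German Landrace × Pietrain gilts whose cycles had been synchronized with altrenogest, PMSG and hCG and which were inseminated with sperm of 1 Pietrain boar, and no other treatment is named. The embryos of a day came from 4 gilts and the gilt of each embryo was not used here, so littermates count as separate embryos and the p-values measure only the spread between these embryos. Each library was made from a whole embryo, in which epiblast, hypoblast and trophectoderm are mixed.

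The epiblast is the cell layer from which the fetus proper arises, while the hypoblast lines the yolk sac and the trophectoderm becomes the outer layer of the placenta. POU5F1 (also OCT4), NANOG and SOX2 are transcription factors that hold cells in a pluripotent state and that regulate each other, and PRDM14, SALL4, KLF4 and DPPA4 are factors linked to the same state. LIN28A is an RNA binding protein that blocks the maturation of let-7 microRNAs. NODAL is a secreted ligand of the TGF beta family that acts through SMAD2 and SMAD3 in the epiblast, and OTX2 is a homeodomain factor of the epiblast and the anterior neural plate. In the pig, trophectoderm and hypoblast make up most of the conceptus when it elongates.

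Between 6068212 and 34002508 counts per embryo were assigned to genes. Levels are given in CPM, the count scaled to the library total, after scaling with TMM factors, which correct for differences in RNA composition. A log2 fold change (log2FC) is that of the later over the earlier day, and a gene was called when its FDR was below 0.001 and its log2FC above 1 or below -1. A gene with 3 counts or fewer was taken as at the floor, which lay between 0.0823 and 0.194 CPM per library on Day 8, between 0.108 and 0.170 CPM on Day 10 and between 0.0872 and 0.434 CPM on Day 12, for counting error only. The summed level of 9 trophectoderm markers, none of which was at the floor in all embryos of a day, is mostly that of the keratins KRT8, KRT18 and KRT19. It ran from 21565 to 26475 CPM on Day 8, from 36212 to 53751 CPM on Day 10 and from 11291 to 34682 CPM on Day 12, while the transcription factor ELF5 of the same list had means of 0.584, 2.10 and 1.53 CPM. From Day 10 to Day 12, 2 of these 9 markers rose (GATA3 and TFAP2A) and 4 fell (KRT8, KRT18, CDX2 and TEAD4), against 14.9% and 8.39% of all genes. The sum of 8 hypoblast markers, of which FOXA1 had a mean of 0.272 CPM on Day 8, ran from 307 to 475 CPM, from 171 to 237 CPM and from 204 to 1538 CPM on the same days. Its largest parts on Day 12 were PDGFRA (mean 332 CPM, 43.9 to 910 CPM) and HNF4A (mean 163 CPM). Of these 8 markers, 6 rose and none fell from Day 10 to Day 12, against 14.9% and 8.39% of all genes. The sum of 4 markers of maternal blood and uterus ran from 0.687 to 2.88 CPM, from 2.78 to 10.2 CPM and from 3.40 to 25.1 CPM. Among the last, the globin gene HBB was at the floor in every Day 8 embryo. Markers of primitive streak and mesoderm (6 genes) summed to between 5.09 and 9.51 CPM, between 28.8 and 182 CPM and between 588 and 1855 CPM. This rise is that of HAND1, a factor also known from trophoblast, with means of 0.0624, 77.1 and 1065 CPM. In contrast, 3 of the 6 genes fell from Day 10 to Day 12, against 8.39% of all genes, and EOMES was at the floor in every Day 12 embryo. The authors also filtered genes by CPM in a table for each day, and none of these 3 passed that of Day 12. Their falls and this count are thus a description and not a test. These sums moved with the days, and their part in the values of the 10 genes was not tested.

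POU5F1 (NCBI gene 100127461, chromosome 7 of Sscrofa11.1, 23564654 to 23570691) fell in both intervals and was still detected in all embryos of Day 12. It lay between 22.5 and 39.5 CPM on Day 8 with a median of 31.5 CPM, between 10.6 and 20.6 CPM on Day 10 with a median of 13.7 CPM, and between 0.611 and 4.05 CPM on Day 12 with a median of 1.54 CPM. The embryos of the 3 days did not overlap. The mean of Day 8 was 2.15 times that of Day 10 (log2FC of -1.10, SE 0.21, adjusted p = 4.34e-05), and the mean of Day 10 was 8.35 times that of Day 12 (log2FC of -3.14, SE 0.23, adjusted p = 6.67e-13). In whole embryos, fewer epiblast cells among all cells and less transcript per cell, in the epiblast or in another cell type, cannot be told apart. The cell type that holds a transcript was not measured. Both points apply to each fall described here.

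NANOG, SOX2 and PRDM14 were at the floor in every embryo of Day 12. NANOG (gene 106507523, chromosome 5, 62931642 to 62939086) had a median of 3.65 CPM on Day 8 (1.97 to 6.01 CPM) and of 2.30 CPM on Day 10 (1.13 to 3.08 CPM), with overlap between the days and a log2FC of -0.71 (SE 0.26, adjusted p = 0.0192) that did not meet the threshold. On Day 12 it had between 0 and 3 counts per embryo. A second gene named NANOG, 100170132 on chromosome 1, is annotated but not in the table, and whether its reads were counted on 106507523 was not tested.

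SOX2 (gene 407739, chromosome 13, 119668476 to 119669435) was low on each day, with a median of 0.822 CPM on Day 8 (0.409 to 1.65 CPM) and of 0.425 CPM on Day 10 (0.228 to 0.772 CPM). Its log2FC was -1.03 from Day 8 to Day 10 (SE 0.30, adjusted p = 0.00453), also short of the threshold. PRDM14 (gene 100519142, chromosome 4, 65273988 to 65295362), a regulator known from naive pluripotency and germ cell fate, fell from a median of 1.60 CPM (1.24 to 2.91 CPM) to 0.613 CPM (0.253 to 0.904 CPM) without overlap of the embryos, the largest fall of the 10 genes in this interval (log2FC of -1.64, SE 0.27, adjusted p = 7.25e-06). On Day 12, SOX2 had no count in 8 embryos and 1 count in each of the other 2, and PRDM14 had no count in 7 embryos and 1 count in each of the other 3. Of the tables of single days, both genes are in that of Day 8 alone, so a fall from Day 8 was built into their selection. Their p-values, the lack of overlap and the rank of PRDM14 describe this fall and do not test it.

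NODAL and OTX2 fell in both intervals. NODAL (gene 110256843, chromosome 14, 73350358 to 73357064) fell from a median of 2.61 CPM on Day 8 (1.75 to 4.47 CPM) to 1.31 CPM on Day 10 (0.954 to 1.69 CPM), with no overlap of the embryos (log2FC of -1.09, SE 0.20, adjusted p = 8.56e-05). Without the highest Day 8 embryo, male d08_m_103, its log2FC was -0.997, short of the limit of 1. OTX2 (gene 100512643, chromosome 1, 186028575 to 186039026) fell from 2.63 CPM (2.18 to 5.69 CPM) to 1.12 CPM (0.639 to 1.86 CPM), again without overlap (log2FC of -1.27, SE 0.29, adjusted p = 0.000507). This call lay close to the threshold: without 1 of 6 embryos (d08_m_121, d10_f_315, d10_f_317, d10_f_454, d10_m_321 or d10_m_435) its log2FC was between -1.11 and -1.25 and its adjusted p, between 0.00107 and 0.00190, missed the threshold of 0.001. On Day 12, NODAL had 0 counts in all 10 embryos and OTX2 had no count in 8.

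For the 5 genes at the floor in every Day 12 embryo, the counts of the 10 embryos of a day were added up. NANOG had 492 counts on Day 10 and 11 on Day 12, a ratio of 45.1 in CPM (95% exact interval from the counts, 25 to 90.9). OTX2 had 267 and 5 counts, a ratio of 53.8 (22.8 to 167), and SOX2 had 97 and 2 counts, a ratio of 48.9 (13.2 to 409). PRDM14 had 126 and 3 counts, a ratio of 42.3 (14.2 to 208). NODAL, with 294 counts on Day 10, was at least 98.7-fold lower on Day 12, where 3 counts over the group were taken as the floor. SOX2 and PRDM14 did not exceed this floor on Day 12 either, so their ratios rest on very few counts. Added up in the same way, POU5F1 was 9.66 times lower (8.62 to 10.8), and its interval lies below those of the other 4 genes that have one. Those 4 were grouped for being at the floor on Day 12, so this order was partly set by that choice and is not a test. These intervals cover counting error only and not the spread between embryos. Against Day 8 the ratios were 73.5 for NANOG, 97.3 for SOX2, 132 for PRDM14 and 123 for OTX2, and NODAL was at least 212-fold lower.

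**Figure D1:**
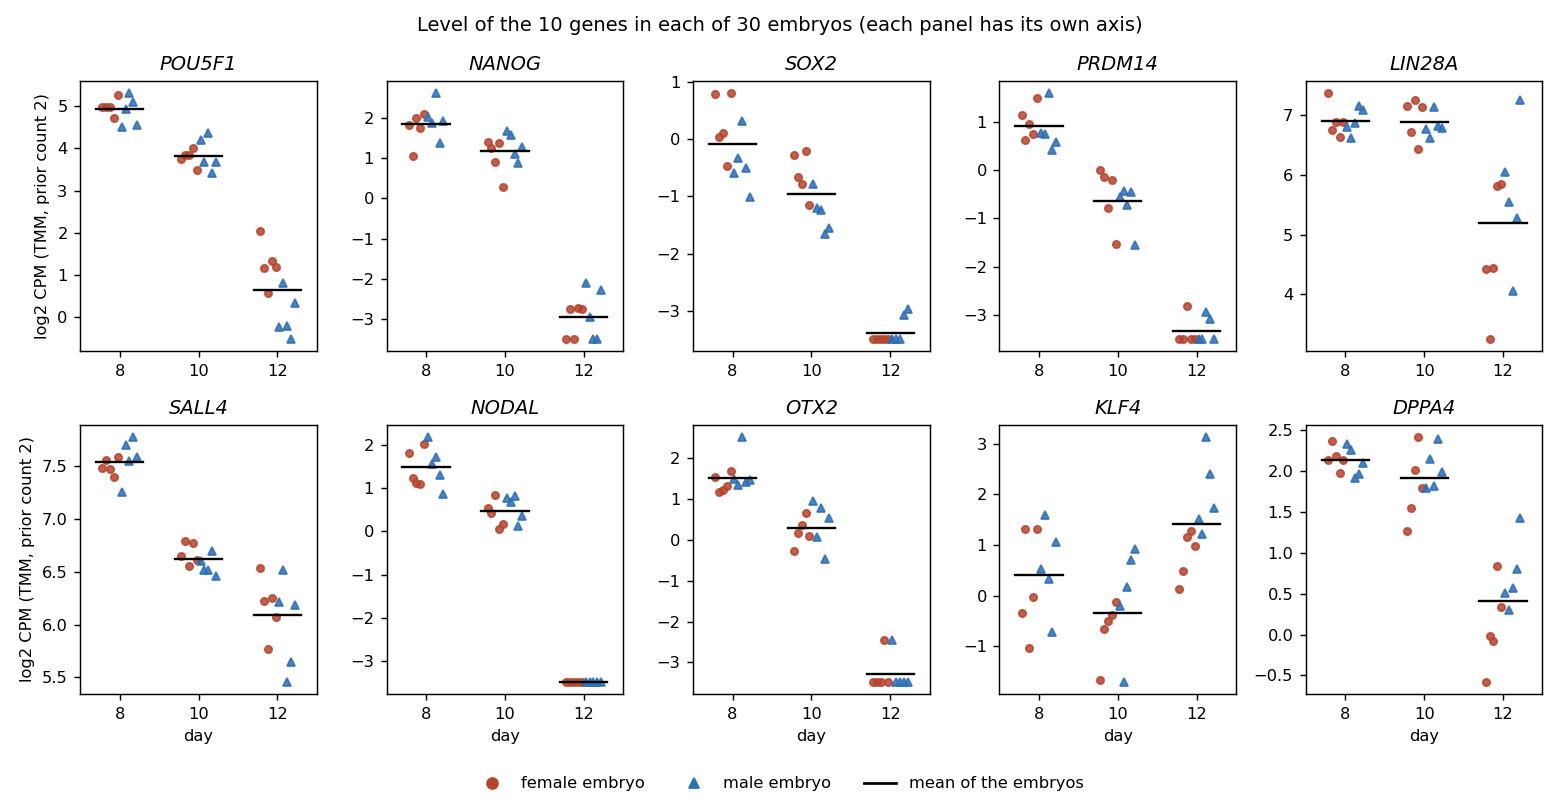
Level of each of the 10 genes in each embryo, as log2 CPM with a prior count of 2, over Days 8, 10 and 12; circles are female and triangles male embryos, the line is the mean of the 10 embryos, and each panel has its own axis. NANOG, SOX2, PRDM14, NODAL and OTX2 reach the lower end of the scale on Day 12, where they have 3 counts or fewer in every embryo, while LIN28A spreads over a 16.0-fold range and KLF4 is the only gene whose Day 12 mean is the highest of the 3 days.

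SALL4, LIN28A and DPPA4 were retained on Day 12. SALL4 (gene 100136902, chromosome 17, 53082610 to 53103023), a zinc finger factor, had a median of 188 CPM on Day 8 (153 to 220 CPM), of 97.4 CPM on Day 10 (87.7 to 111 CPM) and of 73.3 CPM on Day 12 (43.7 to 92.9 CPM). Days 8 and 10 did not overlap, yet the log2FC of -0.93 (SE 0.10, adjusted p = 1.04e-08) was just under the limit of 1, and that from Day 10 to Day 12 was -0.50 (SE 0.10, adjusted p = 0.000119). Only over the whole period did SALL4 meet both criteria (log2FC of -1.42, SE 0.10, adjusted p = 3.02e-13).

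LIN28A (gene 100142662, chromosome 6, 83806178 to 83818550) had nearly the same level on the first 2 days, with a median of 117 CPM on Day 8 (98.2 to 164 CPM) and of 111 CPM on Day 10 (86.5 to 152 CPM), and a log2FC of -0.02 (SE 0.29, adjusted p = 0.964). On Day 12 its median was 42.6 CPM, and single embryos ran from 9.48 CPM in female d12_f_271 to 152 CPM in male d12_m_307, whose level lay within the range of Day 8. The fall from Day 10 to Day 12 was called (log2FC of -1.30, SE 0.29, adjusted p = 0.000352). It was not called with library size alone as the scaling (-1.05, adjusted p = 0.00327), with only these 2 days in the fit (-1.33, adjusted p = 0.00246) or in the male embryos alone (-0.84, adjusted p = 0.0904).

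DPPA4 (gene 100620290, chromosome 13, 150165485 to 150176712), a chromatin protein of early embryos and stem cells, had medians of 4.32, 3.67 and 1.25 CPM on the 3 days. It had a log2FC of -0.19 (SE 0.18, adjusted p = 0.379) from Day 8 to Day 10 and fell from Day 10 to Day 12 (-1.48, SE 0.19, adjusted p = 4.80e-08). The Day 12 embryos, from 0.579 to 2.59 CPM, overlapped with those of Day 10, from 2.32 to 5.27 CPM, and lay below all of Day 8, from 3.69 to 5.09 CPM.

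KLF4 (gene 595111, chromosome 1, 248604817 to 248609574), a Krüppel-like factor that is also expressed in many epithelia, was the one gene that rose. Its median was 1.25 CPM on Day 8 (0.401 to 2.92 CPM), 0.732 CPM on Day 10 (0.217 to 1.81 CPM) and 2.30 CPM on Day 12 (1.01 to 8.70 CPM), and the embryos of all 3 days overlapped. The change from Day 8 to Day 10 was not called (log2FC of -0.81, SE 0.41, adjusted p = 0.0894), while the rise from Day 10 to Day 12 was (1.89, SE 0.41, adjusted p = 0.000199). In female or male embryos alone, with 5 a day, this rise was 1.51 (adjusted p = 0.0158) and 2.02 (adjusted p = 0.00595) and missed the threshold. From Day 8 to Day 12 the log2FC of 1.08 (SE 0.40, adjusted p = 0.0158) did not meet the threshold. Since KLF4 did not pass the authors' filter for the Day 10 table, its changes to and from that day are a description and not a test.

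**Figure D2:**
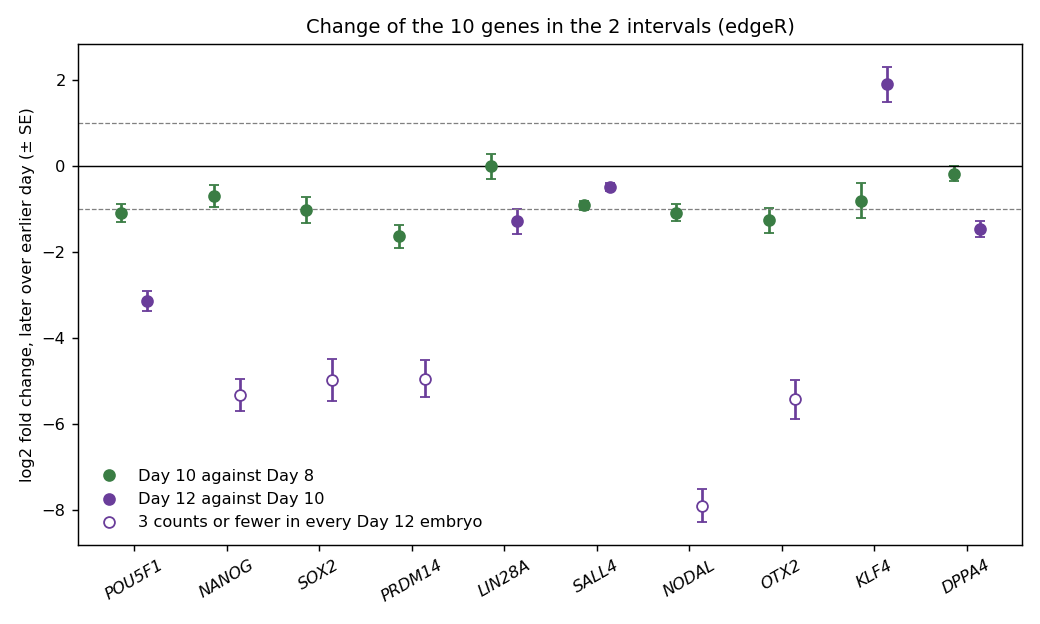
Log2 fold change of each gene with its SE from the edgeR fit, for Day 10 against Day 8 and Day 12 against Day 10; dashed lines mark log2FC of -1 and 1, and open circles mark genes with 3 counts or fewer in every Day 12 embryo, whose fitted value depends on the prior count. The values of the first interval lie between -0.02 and -1.64, those of the second reach -7.90 for NODAL, and KLF4 lies above 0 in the second interval alone.

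By these criteria, 4 of the 10 genes fell from Day 8 to Day 10, namely POU5F1, PRDM14, NODAL and OTX2, against 4.20% of all 13103 genes, and none rose, against 9.88%. In the second interval 8 fell against 8.39% of all genes and 1 rose against 14.9%. Over the whole period 9 fell, all but KLF4, against 10.4%, and none rose, against 22.0%. The median log2FC of the 10 genes was -0.98, -4.05 and -5.13 in these comparisons, or -4.27 and -5.22 for the last 2 with the floor genes at their ratio of added counts, beside 0.03, 0.04 and 0.09 over all genes. The embryos did not overlap for 5, 6 and 8 of the 10 genes, all lower on the later day, against 11.0%, 8.20% and 16.0% of all genes. Of the 10 genes, 3 did not pass the authors' filter for the Day 10 table (SOX2, PRDM14 and KLF4) and 5 did not pass that of Day 12 (NANOG, SOX2, PRDM14, NODAL and OTX2). They are in the table of all embryos through the days on which they are high and had to differ, so the counts and medians are a description of the 10 genes and not a test of them. For the genes that missed the filter of a day, the same holds for the p-values and the lack of overlap against that day.

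The first interval depended on how a change was called. Female embryos alone gave 1 called gene, POU5F1, and male embryos alone 1, SALL4, while PRDM14, NODAL and OTX2 passed in neither, with 5 embryos a day. Their log2FC in female and male embryos were -1.59 and -1.72 for PRDM14, -1.13 and -1.07 for NODAL and -1.23 and -1.31 for OTX2. With the fold limit made part of the test, none of the 10 was left, and an FDR under 0.05 without a limit on the fold change gave 7. Scaling by library size alone shifted the median log2FC of all genes to -0.15 from Day 8 to Day 10 and to 0.24 from Day 10 to Day 12, with 1027 higher and 811 lower genes in the first interval against 1295 and 550 with TMM factors, and 2396 and 891 in the second against 1951 and 1099. Under it SALL4 was also called as lower on Day 10 (log2FC of -1.10).

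The ratio of each gene to POU5F1 within the same embryo compares the genes without the scaling between libraries. From Day 8 to Day 10, LIN28A rose relative to POU5F1 by 1.08 on the log2 scale, from 1.97 ± 0.34 to 3.05 ± 0.40 (SD, n = 10 each; permutation test with 100000 resamples, two-sided, adjusted p = 0.000102 over 17 comparisons), and 9 of 10 Day 10 embryos lay above all Day 8 embryos. DPPA4 rose relative to POU5F1 by 0.89 (adjusted p = 0.000531). For the other 7 genes the ratio did not pass: NANOG had a difference of 0.42 (adjusted p = 0.0581), PRDM14 one of -0.44 (adjusted p = 0.0581), and SOX2, SALL4, NODAL, OTX2 and KLF4 lay between -0.12 and 0.36 (adjusted p from 0.211 to 0.630). The differences of NODAL and OTX2 from POU5F1 in this interval, 0.09 and -0.12, were thus smaller than their spread of 0.27 to 0.46 within a day. With SOX2 in place of POU5F1, LIN28A had a difference of 0.85 (adjusted p = 0.0258), PRDM14 one of -0.68 (adjusted p = 0.0258), and DPPA4 one of 0.65 (adjusted p = 0.125). SOX2, PRDM14 and KLF4 did not pass the authors' filter for the Day 10 table, so a fall to that day was favored by their selection. Their differences from POU5F1, and all differences with SOX2 as the reference, are thus a description and not a test.

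From Day 10 to Day 12, only genes above the floor in all embryos could be set against POU5F1. All 4 rose relative to it: SALL4 by 2.65 and KLF4 by 4.92 on the log2 scale (permutation test, adjusted p = 4.25e-05 for both, the smallest that these resamples allow after adjustment), DPPA4 by 1.67 (adjusted p = 0.00206) and LIN28A by 1.49 (adjusted p = 0.0136). For LIN28A 2 and for DPPA4 1 of the 10 Day 12 embryos lay below all Day 10 embryos. The genes left out fell further than POU5F1 by added counts, so that those kept rose relative to POU5F1 was partly set by this choice. KLF4 did not pass the authors' filter for the Day 10 table, so its rise relative to POU5F1 from that day is a description and not a test. On Day 12 the ratio of SALL4 to POU5F1 ran from 4.49 to 5.19 in the female and from 5.66 to 6.45 in the male embryos without overlap, which was not tested. Female and male means of the ratio were 3.5 and 5.6 for LIN28A, -0.45 and 1.96 for KLF4 and -1.16 and 0.68 for DPPA4, with overlap. All 4 ratios share POU5F1 as the reference, and SALL4 itself had a log2FC of 0.17 for female over male (edgeR, adjusted p = 0.654).

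**Figure D3:**
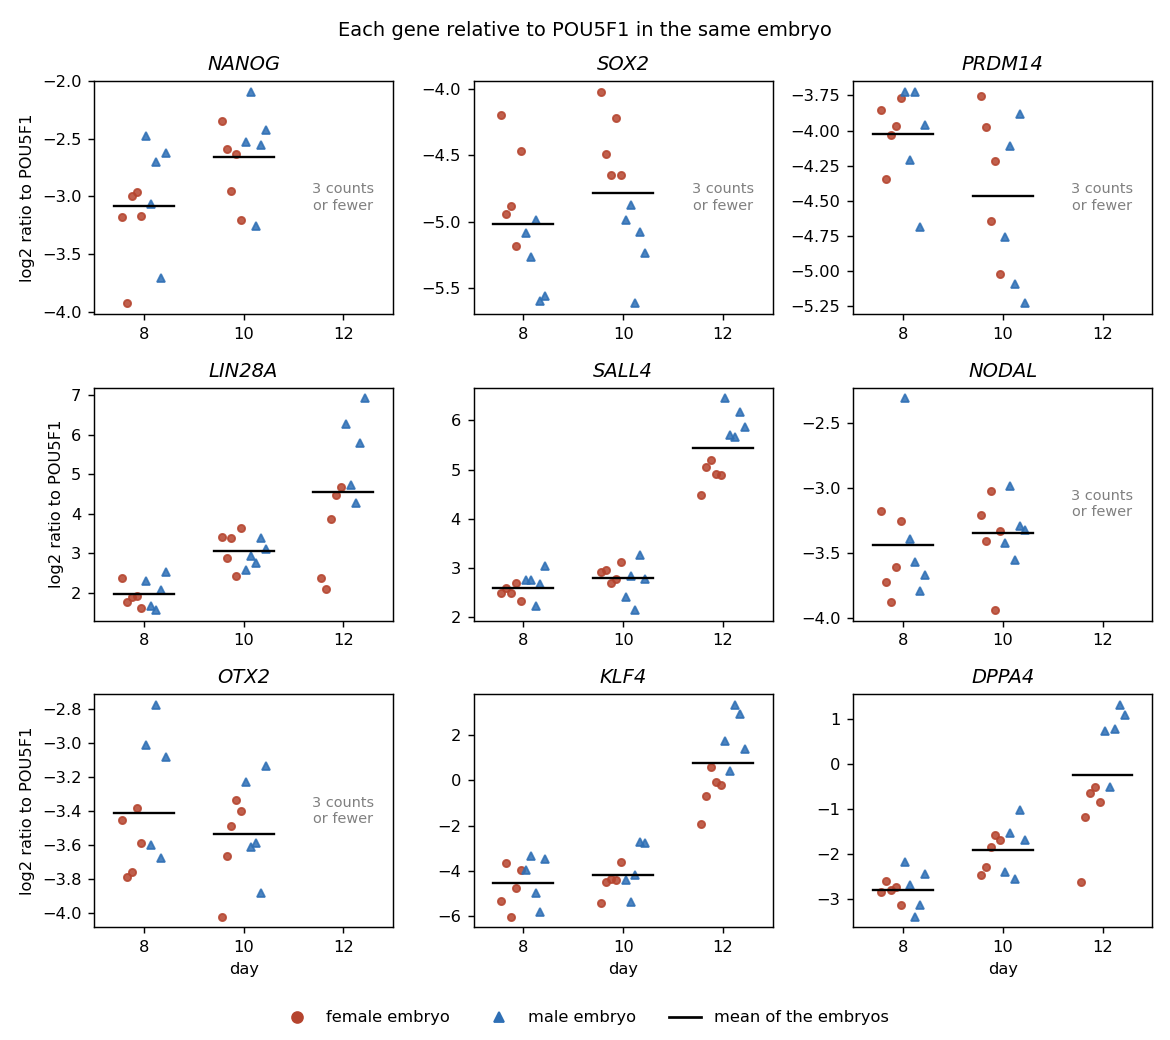
Log2 ratio of each gene to POU5F1 in the same embryo on Days 8, 10 and 12, with circles for female and triangles for male embryos, a line at the mean of the 10 embryos and an axis of its own in each panel; Day 12 is left out for genes with 3 counts or fewer. The means of LIN28A and DPPA4 step up on each day and those of SALL4 and KLF4 on Day 12, while the means of NODAL and OTX2 on Days 8 and 10 differ by 0.09 and -0.12. On Day 12, 2 embryos for LIN28A and 1 for DPPA4 lie below all Day 10 embryos.

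No embryo was the highest for more than 4 of the 10 genes of its day. On Day 8, male d08_m_121 was the highest embryo for POU5F1, NANOG, PRDM14 and OTX2 and the lowest for DPPA4. On Day 10, male d10_m_435 was the lowest for POU5F1, SOX2 and OTX2, and on Day 12 female d12_f_245, the smallest library, was the highest for POU5F1 and SALL4 and the lowest for KLF4 and DPPA4. The coefficient of variation on Day 12 was 84.6% for LIN28A, 74.1% for KLF4, 60.6% for POU5F1, 42.3% for DPPA4 and 23.5% for SALL4, against 17.2%, 60.6%, 18.4%, 10.9% and 10.1% on Day 8.

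Of 22 relations to POU5F1 within a day, each over 10 embryos, 2 passed after adjustment of the permutation p of Pearson's r. On Day 10, OTX2 was higher where POU5F1 was higher (r = 0.81, permutation p = 0.00416, adjusted p = 0.0458; Spearman's rho = 0.84, permutation p = 0.00366, adjusted p = 0.0805), with r = 0.68 without the 2 embryos farthest from the median of POU5F1. On Day 12, KLF4 was lower where POU5F1 was higher (r = -0.84, permutation p = 0.00167, adjusted p = 0.0367; rho = -0.79, permutation p = 0.00846, adjusted p = 0.0931), with r = -0.73 without 2 embryos. With the mean of each sex removed, a step added after the data were seen, r was -0.65 for KLF4 (permutation test, adjusted p = 0.184) and 0.81 for OTX2 (permutation test, adjusted p = 0.0502). The value of OTX2 lay within the error of the resampling, since a second set of resamples gave an adjusted p of 0.048, at which SOX2 on Day 8 (r = 0.79) and SALL4 on Day 12 (r = 0.83) passed as well. SOX2 on Day 8 (r = 0.75, permutation p = 0.0132, adjusted p = 0.0967) and SALL4 on Day 12 (r = 0.69, permutation p = 0.0286, adjusted p = 0.157) did not pass, nor did NANOG on either day (r = 0.18 and 0.47, permutation p = 0.626 and 0.175, adjusted p = 0.847 and 0.385).

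In the comparison of the sexes, each within the table of its day, none of the members present (10, 7 and 5 on Days 8, 10 and 12) was called (FDR below 0.05), against 0.658%, 0.223% and 0.123% of the genes of these tables. At an unadjusted p under 0.05 the edgeR quasi-likelihood test gave 1, 0 and 2 members, SOX2 on Day 8 and POU5F1 and KLF4 on Day 12, and the robust GLM and DESeq2 also called none. On Day 12, POU5F1 was at 1.40, 2.16, 2.18, 2.44 and 4.05 CPM in the female and at 0.611, 0.760, 0.779, 1.16 and 1.67 CPM in the male embryos. The sexes overlapped by 1 embryo, with a log2FC of 1.31 for female over male (SE 0.40, adjusted p = 0.198). In 1 fit of all 30 embryos with a shared spread the difference was called (1.24, adjusted p = 0.00814), as it was for 2658 genes in all against 15 in the Day 12 table, and over the other settings its adjusted p ran from 0.0646 to 0.222. KLF4 went the other way, with 1.01, 1.32, 1.88, 2.15 and 2.35 CPM in the female and 2.25, 2.76, 3.21, 5.18 and 8.70 CPM in the male embryos (log2FC of -1.28, SE 0.40, adjusted p = 0.198). The mean of LIN28A on Day 12 was 33.2 ± 22.1 CPM among female embryos against 63.8 ± 52.1 CPM among male ones (SD, n = 5 each), with broad overlap (log2FC of -0.92, SE 0.59, adjusted p = 0.345).

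Whether a change between days differed between the sexes was tested with a fit of 6 groups. No gene passed an FDR of 0.05 by edgeR, a share of 0.00% in each of the 3 comparisons, with 100, 2473 and 2863 genes at an unadjusted p under 0.05, and DESeq2 called 1, 27 and 345. POU5F1 came closest among the 10 genes, with a log2 difference of 1.36 between the female and the male change from Day 10 to Day 12 (SE 0.35, adjusted p = 0.192) and of 1.16 from Day 8 to Day 12 (SE 0.35, adjusted p = 0.127). It was the only member with an unadjusted p under 0.05, in both comparisons, and DESeq2 called it from Day 8 to Day 12 alone.

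**Figure D4:**
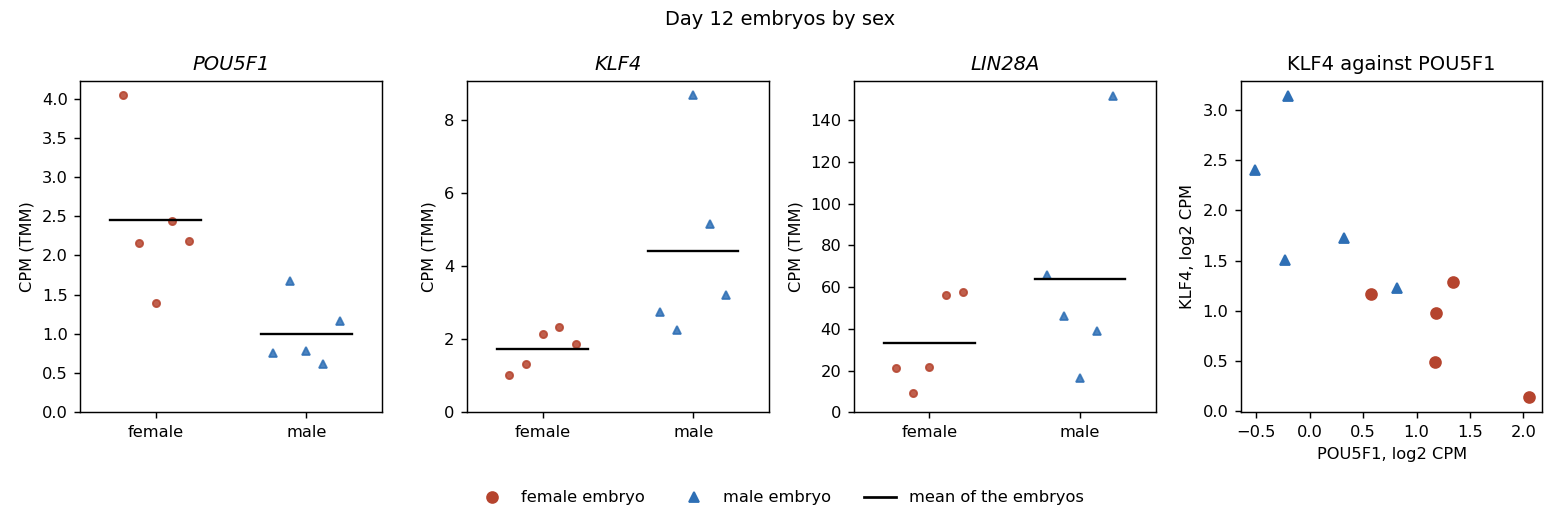
CPM of POU5F1, KLF4 and LIN28A in the 5 female and 5 male embryos of Day 12, with a line at the mean, and log2 CPM of KLF4 against that of POU5F1 in the same 10 embryos. POU5F1 is higher in female and KLF4 in male embryos with little overlap, and r of the pair is -0.84 over all 10 embryos and -0.65 with the mean of each sex removed.

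NODAL is made as a precursor that proprotein convertases cut, it needs a coreceptor such as TDGF1 (Cripto), and its signal passes through activin receptors to SMAD2, SMAD3, SMAD4 and FOXH1. Of 22 genes listed for this pathway, 14 were in the table. Between Days 8 and 10, 1 rose and none fell, from Day 10 to Day 12, 2 rose and 3 fell, and from Day 8 to Day 12, 3 rose and 2 fell, with medians of 0.36, 0.31 and 0.50. Among all genes, 9.88%, 14.9% and 22.0% rose and 4.20%, 8.39% and 10.4% fell in these comparisons. TDGF1 was at 14 ± 3.49 CPM on Day 8, at 685 ± 310 CPM on Day 10 and at 90.4 ± 26.0 CPM on Day 12 (log2FC of 5.61, SE 0.27, adjusted p = 1.10e-16, and of -2.92, SE 0.23, adjusted p = 3.58e-12), so that the coreceptor was highest on the day on which its ligand NODAL had a median of 1.31 CPM. GDF3, a ligand related to NODAL, and EOMES, a transcription factor among its targets, had 1.07 ± 0.39 and 2.64 ± 0.98 CPM on Day 10 and at most 2 counts in any Day 12 embryo, ratios of added counts of 47.6 (20.1 to 148) and 74.3 (37.5 to 173). GDF3 passed the authors' filter in the Day 10 table alone, and EOMES did not pass that of Day 12. Both falls are thus a description and not a test.

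PCSK6, a convertase, rose from 0.425 ± 0.300 to 5.08 ± 6.84 CPM from Day 10 to Day 12 (log2FC of 3.55, SE 0.58, adjusted p = 3.64e-06), and was not called in male embryos alone (2.40, adjusted p = 0.00238). It passed the authors' filter in the Day 12 table alone, so this rise is a description and not a test. The receptors ACVR1B, ACVR2A and ACVR2B and the effectors SMAD2, SMAD3, SMAD4 and FOXH1 were not called in any comparison by the edgeR quasi-likelihood test, and their log2FC lay between -0.75 for FOXH1 from Day 8 to Day 10 and 0.99 for SMAD2 from Day 8 to Day 12. Close to the limit of 1, ACVR2A was called as higher on Day 12 than on Day 10 by the robust GLM (1.07) and with library size alone (1.16), FOXH1 in the same interval with library size alone, and SMAD2 from Day 8 to Day 12 by the robust GLM.

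The other pluripotency and epiblast genes, 22 of 30 listed, had no common direction. Between Days 8 and 10, 2 rose and 6 fell, from Day 10 to Day 12, 7 rose and 7 fell, and from Day 8 to Day 12, 7 rose and 9 fell, with medians of -0.37, 0.48 and 0.32. The shares over all genes were 9.88%, 14.9% and 22.0% for rises and 4.20%, 8.39% and 10.4% for falls. ESRRB, a nuclear receptor of naive pluripotency that is also known from trophoblast stem cells, fell from 348 ± 34.7 to 70.8 ± 41.9 and then to 0.225 ± 0.289 CPM (log2FC of -2.30, SE 0.30, adjusted p = 1.62e-07, and -8.22, SE 0.44, adjusted p = 3.58e-16). TBX3 fell from 204 ± 14.8 to 28.9 ± 14.5 CPM by Day 10 (-2.82, adjusted p = 1.54e-11) and was at 29.5 ± 9.47 CPM on Day 12. UTF1, a chromatin factor of pluripotent cells, fell from 41.6 ± 11.2 to 6.33 ± 4.69 CPM (-2.71, adjusted p = 1.43e-05), with -2.69 and -2.75 in female and male embryos alone, where it was not called. ZSCAN10 had 0.678 ± 0.297 CPM on Day 10 and at most 3 counts in any Day 12 embryo. It passed the authors' filter in the Day 8 table alone, and ESRRB did not pass that of Day 12. The falls of these 2 genes to Day 12 are thus a description and not a test.

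Other genes of this list rose. DPPA5, an RNA binding protein of early embryos, rose from 3.87 ± 1.04 CPM on Day 8 to 187 ± 225 CPM on Day 10 (log2FC of 5.58, SE 0.52, adjusted p = 3.21e-10), where single embryos ran from 24.5 to 678 CPM, and was at 511 ± 303 CPM on Day 12. Another group had its lowest mean on Day 10. NR5A2, a nuclear receptor, rose from 0.484 ± 0.157 to 17.2 ± 9.14 CPM on Day 12 (5.14, adjusted p = 5.15e-14), SALL1, a paralog of SALL4, from 3.74 ± 0.88 to 23.5 ± 10.4 CPM (2.65, adjusted p = 6.03e-11) and TFCP2L1 from 2.5 ± 1.18 to 14.1 ± 6.26 CPM (2.5, adjusted p = 1.89e-09). Since NR5A2 did not pass the authors' filter for the Day 10 table, its rise is a description and not a test.

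Genes of the LIN28 and let-7 pathway (13 of 14 listed in the table) showed 2 rises and 2 falls from Day 8 to Day 10, no call from Day 10 to Day 12 by the edgeR quasi-likelihood test (5 at an unadjusted p under 0.05, 1 call by the robust GLM and 0 by DESeq2), and 1 rise and 2 falls from Day 8 to Day 12, with medians of -0.24, 0.01 and -0.29. Over all genes, the shares were 9.88%, 14.9% and 22.0% for rises and 4.20%, 8.39% and 10.4% for falls. LIN28B, the paralog of LIN28A, rose from 1.11 ± 0.52 to 3.14 ± 0.77 CPM by Day 10 (log2FC of 1.51, SE 0.33, adjusted p = 0.000317), and TUT4, which uridylates the let-7 precursor bound by LIN28A, rose from 6.46 ± 1.41 to 13.5 ± 1.76 CPM (1.06, SE 0.19, adjusted p = 2.37e-05) and was at 26.3 ± 10.2 CPM on Day 12. Neither was called with library size alone (1.32, adjusted p = 0.00119, and 0.88, adjusted p = 0.000333). In female embryos alone LIN28B was not called (1.10, adjusted p = 0.118), and TUT4 was called in neither sex alone (1.19 and 0.94). MYCN and MYC, both among the targets of let-7, fell by Day 10, MYCN from 129 ± 14.9 to 49.3 ± 8.26 CPM (-1.39, adjusted p = 5.96e-11) and MYC from 41.3 ± 5.03 to 15.8 ± 7.47 CPM (-1.38, adjusted p = 2.27e-06, not called in female embryos alone with -1.31), in the interval in which LIN28A was not called. MicroRNAs were not measured.

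Of the genes of germ cell specification, 8 of 10 listed, none rose by the edgeR quasi-likelihood test. SOX17, also a hypoblast marker, had a log2FC of 0.99 from Day 10 to Day 12 (adjusted p = 0.000546), just under the limit, and was called as higher with library size alone (1.22). In the first interval 2 fell, in the second 1, and over both 3, with medians of -0.25, -0.35 and -0.89. Among all genes, 4.20%, 8.39% and 10.4% fell and 9.88%, 14.9% and 22.0% rose. DPPA3 (also STELLA) fell from 5.22 ± 1.18 to 1.40 ± 0.26 CPM (log2FC of -1.89, SE 0.27, adjusted p = 6.45e-07) and had 1.39 ± 0.97 CPM on Day 12, with 12 counts or more in each embryo. KIT, a receptor tyrosine kinase of migrating germ cells and other lineages, fell from 7.12 ± 2.81 to 2.14 ± 0.96 CPM (-1.73, adjusted p = 7.99e-05). DAZL, an RNA binding protein of germ cells, fell from 1.18 ± 0.61 CPM on Day 10 to 0.270 ± 0.184 CPM on Day 12 (-2.05, adjusted p = 6.34e-06). DAZL passed the authors' filter in the Day 10 table alone, so this fall is a description and not a test. With 5 embryos a day, KIT (-1.57 in female and -1.92 in male embryos) and DAZL (-2.32 and -1.86) were called in neither sex alone, and DPPA3 was not called in males (-1.73).

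**Figure D5:**
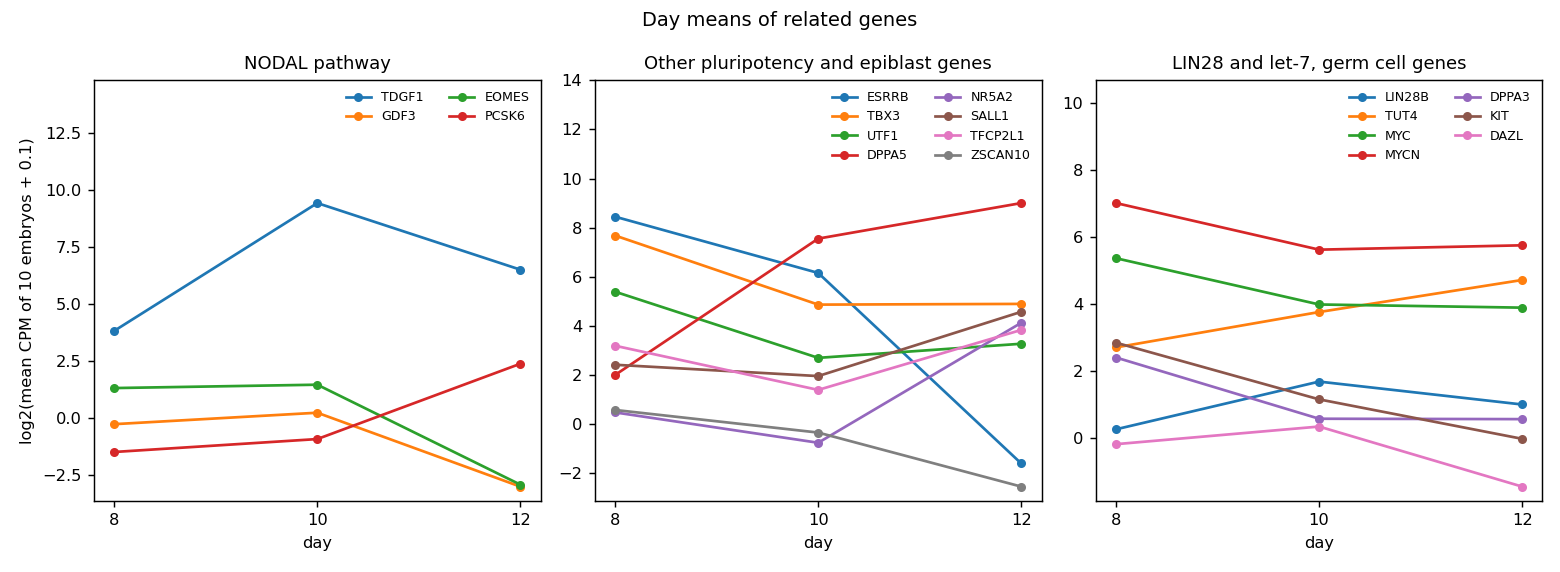
Mean CPM of 10 embryos on Days 8, 10 and 12, as log2 of the mean plus 0.1, for named called genes of the NODAL pathway, of the other pluripotency and epiblast genes and of the LIN28 and let-7 and germ cell lists. TDGF1 peaks on Day 10, EOMES, GDF3 and ESRRB drop on Day 12, and DPPA5, NR5A2, SALL1 and TFCP2L1 are higher on Day 12 than on Day 10.

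For the 8 members with a mean of at least 1 CPM, which leaves out SOX2 and PRDM14, the genes whose levels followed each member most closely within a day were searched among 11845 genes with such a mean, by the mean of the Pearson correlations over 10 embryos on each day on which the member was above the floor. These values are a description, taken as the highest of many. DPPA3, on chromosome 5, was nearest to POU5F1, with a mean r of 0.71 over 3 days (0.70, 0.67 and 0.76), before TCFL5 (0.69) and CBLC (0.68). For LIN28A the nearest genes were MFSD14B (0.81), LBR (0.73) and GATAD2A (0.73), and for SALL4 PRDX6 (0.80), LASP1 (0.76) and TTLL12 (0.75). NAA16 (0.81), CDC40 (0.76) and PICALM (0.75) were nearest to DPPA4, and UGP2 (0.78), AP3M1 (0.77) and PICALM (0.76) to KLF4. Over Days 8 and 10 alone, the nearest genes were SLC1A5 (0.85), SLC43A3 (0.83) and NFE2L3 (0.77) for NANOG, GJC1 (0.80), MLF1 (0.76) and MB21D2 (0.71) for OTX2 and SLC25A4 (0.76), RARB (0.71) and C6H16orf74 (0.71) for NODAL. PICALM was the one gene among the 3 nearest of 2 members.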

How the data were processed

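The authors made stranded mRNA libraries of single embryos, trimmed the reads, removed 3 bases from their 5′ ends, mapped them to the Sus scrofa genome (Sscrofa11.1, NCBI annotation) and filtered genes by CPM; the aligner and the counter are not given in the sources used here. The deposited values are whole-number read counts per gene, without normalization, in 4 tables. Each gene listed reached 0.5 CPM in no fewer than 4 embryos. Their processing notes name edgeR.

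Levels, ratios and correlations were computed in Python 3.11.15 (scipy 1.17.1, pandas 2.3.3, numpy 2.4.6, figures with matplotlib 3.10.9) and model fits in R 4.3.3 (edgeR 4.0.16, alternative DESeq2 1.42.0). The main test was edgeR's quasi-likelihood F test with TMM factors, robust dispersions and Benjamini-Hochberg adjustment over all genes of the table. Days were compared in 1 fit of 3 day groups (FDR below 0.001, absolute log2FC above 1) and sexes in the table of their day (FDR below 0.05, female over male). The SE is the log2FC over the square root of F. Log2 levels and ratios use a prior count of 2, medians of lists are of log2FC, and permutation tests use 100000 resamples. The edgeR quasi-likelihood test and scipy's permutation test of 2 means were run on simulated data. The permutation code that gave the p-values here and the other steps were not.

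The 10 genes and the lists of related genes were chosen with earlier results of these data known. Named from each list were the called genes with the 3 largest rises and the 3 largest falls per comparison, and per member the 3 genes of highest mean correlation; Day 12 was left out of it for members at the floor, a choice made after the data were seen. A few genes singled out in the text beyond this rule were chosen after their values were seen: the receptors, SMAD genes, FOXH1, SOX17 and single markers of other cell types. Some genes that the rule names are not reported here. Sequences were not used here.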

Additional observations from a re-analysis of the deposited data

Results flagged for a closer look

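Embryos far from the others of their group were looked for in 124 groups of 10 embryos of a day, or of 5 of a day and sex, by Dixon's ratio of the gap to the range. Its limit was exceeded in 11. The limit gives about 1 in 20 for independent normal values. The values here are CPM without logs and some groups share embryos, so the number that chance gives is not known. Male d08_m_121 stood apart on Day 8 with 5.69 CPM of OTX2 against at most 3.12 CPM in the other 9 embryos (and at most 2.71 CPM in the other males), with 2.91 CPM of PRDM14 against at most 1.62 CPM in the other males and with 2.13 CPM of NR5A2 against at most 1.45 CPM. Without this embryo, the call of OTX2 from Day 8 to Day 10 was lost.

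Female d12_f_245, the smallest library, had 4.05 CPM of POU5F1 against at most 2.44 CPM and 47.9 CPM of UTF1 against at most 9.0 CPM in the other Day 12 embryos. Male d12_m_307 had 152 CPM of LIN28A against at most 65.8 CPM.

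Female d12_f_297 had 22.7 CPM of PCSK6 on Day 12 against at most 10.2 CPM, and male d10_m_453 had 1.16 CPM of it on Day 10 against at most 0.669 CPM. Female d10_f_317 had 2.62 CPM of DAZL against at most 1.48 CPM, and male d08_m_103 had 10.1 CPM of TUT4 against at most 7.13 CPM.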

How the results depend on the processing

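Over the fits without 1 embryo, from 3 to 4 of the 10 genes were called from Day 8 to Day 10, and 9 in both other comparisons. With the fold limit made part of the test, 0 were called from Day 8 to Day 10, with an FDR below 0.05 alone 7, and in female or male embryos alone 1 each; the smaller number of embryos lowers the count by construction, and otherwise the cause was not tested. The log2 fold change of LIN28A from Day 8 to Day 10 changed sign at values near 0, with 0.0406 in female embryos alone and from -0.0633 to 0.0401 without 1 embryo. In the LIN28 and let-7 list 1 gene (TUT4, higher) was called from Day 10 to Day 12 with library size alone or the robust GLM, and among germ cell genes 2 were called with these and with DESeq2, the added gene being SOX17, higher, with library size alone and KIT, lower, with the others. In 1 fit of 6 groups 1 member (POU5F1) was called between the sexes on Day 12, and DESeq2 called 1 difference in change by sex. With SOX2 as the reference, 2 ratios passed and 0 relations within a day. These 2 ratios are a description, since a fall of SOX2 from Day 8 was built into its selection. Library size alone left 1 relation, and removal of the sex means left 0, or 3 with a second set of resamples, both added after the data were seen. Ratios that passed numbered 10 to 11 over the fits without 1 embryo, where NANOG or PRDM14 passed at times. No paired analysis was possible because the labels do not give the gilt of each embryo. The paper states that at least 1 female and 1 male embryo per stage were taken from the same sow, and the sex tests leave out this pairing. On Day 10, KLF4 had as few as 4 and SOX2 and PRDM14 as few as 5 counts in an embryo, so that smaller changes may not be detectable at this depth.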
